A study of Mus musculus with 17 samples.

Results

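Matricellular proteins are secreted proteins of the extracellular matrix that bind collagens, fibronectin and cell surface receptors and tune how cells attach to and remodel the matrix, rather than forming its main fibres. The genes described here are periostin (Postn), the tenascins (Tnc, Tnn and Tnxb), the thrombospondins (Thbs1, Thbs2, Thbs3 and Thbs4), and Sparc with its relative Sparcl1. They were taken by name, as the probe sets that the platform annotation gives to a single one of these symbols. All 10 genes had such a probe set, of 18193 genes with a named probe set in all, and all 10 passed the filter on dim signal. They carry 16 probe sets, and 1 further probe set, which names Thbs1 together with another gene, was left out. Where a gene had several probe sets, the one of highest mean signal was used.

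Each of 17 Affymetrix mouse expression arrays held RNA from mSSCs, the self-renewing skeletal stem cells (9 arrays), and mBCSPs, their CD105-positive progenitors of bone, cartilage and stroma (8 arrays). All cells came from female C57BL/6 mice, and cells bearing CD45, Ter119 or Tie2 were sorted out. In the study's protocol surgery was at 8 weeks of age, either removal of the ovaries (OVX) or a sham operation, a femoral fracture followed after a further 6 weeks, and callus was taken at day 7. Fracture callus gave 4 arrays of sham mice, 2 of OVX mice without hormone and 2 of OVX mice with a 0.18 mg pellet of estradiol (OVX + E2). Uninjured bone gave 3 arrays of sham mice (mSSCs on 2, mBCSPs on 1) and 2 of OVX mice. On 2 callus arrays the labels of the ovary surgery conflict (OVX in the title, sham in the treatment), and 2 callus arrays carry none. These 4 were therefore groups of their own in the fits of surgery. There they add to the estimates of spread and of the difference between populations but stand on neither side of a comparison. The labels do not state whether arrays came from separate or pooled mice, and p-values measure the spread between arrays only.

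Array titles begin with codes of 3 forms, called A (2 letters, condition first, 6 callus arrays), B (3 letters, 7 arrays) and C (2 letters, population first, 4 arrays) here. Whether the forms mark sets processed apart is not stated in the sources used here. Forms B and C hold both callus and uninjured arrays, while estradiol was given only to mice of form A arrays, and callus surgery groups are compared within that form, where each group has 1 mSSC and 1 mBCSP array. The deposited log2 values had array medians of 7.67 to 7.88 and were quantile normalized here. Spearman correlations between arrays ran from 0.591 to 0.977. Eng, the gene of CD105, ranged from 7.36 to 8.42 (median 7.95) in mSSCs and from 8.40 to 9.97 (median 9.16) in mBCSPs. Ptprc, the gene of CD45, was at 6.58 to 13.53 (median 9.67) on callus arrays and at 13.79 to 14.74 (median 14.58) on uninjured arrays, although cells with CD45 had been sorted out. Levels of different genes come from different probes and are not compared with each other. In bulk RNA, fewer cells of a type and less RNA per cell cannot be told apart.

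Periostin is made by cells of the periosteum and by fibroblasts, and aids the cross-linking of collagen. Tenascin C is deposited by mesenchyme around sites of growth and repair, tenascin N (also called tenascin W) is found in periosteum and other stem cell niches, and tenascin X supports collagen networks of tendon, ligament and skin. Thrombospondins 1 and 2 restrain vessel growth through CD36 and CD47, and thrombospondin 1 activates latent TGF-beta and is also stored in platelets. Thrombospondin 3 is expressed in skeletal tissue and thrombospondin 4 in tendon and muscle. Sparc, also called osteonectin, is an abundant collagen-binding protein of bone, and Sparcl1 (hevin) is a related protein that is also made by cells of blood vessels.

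**Figure D1:**
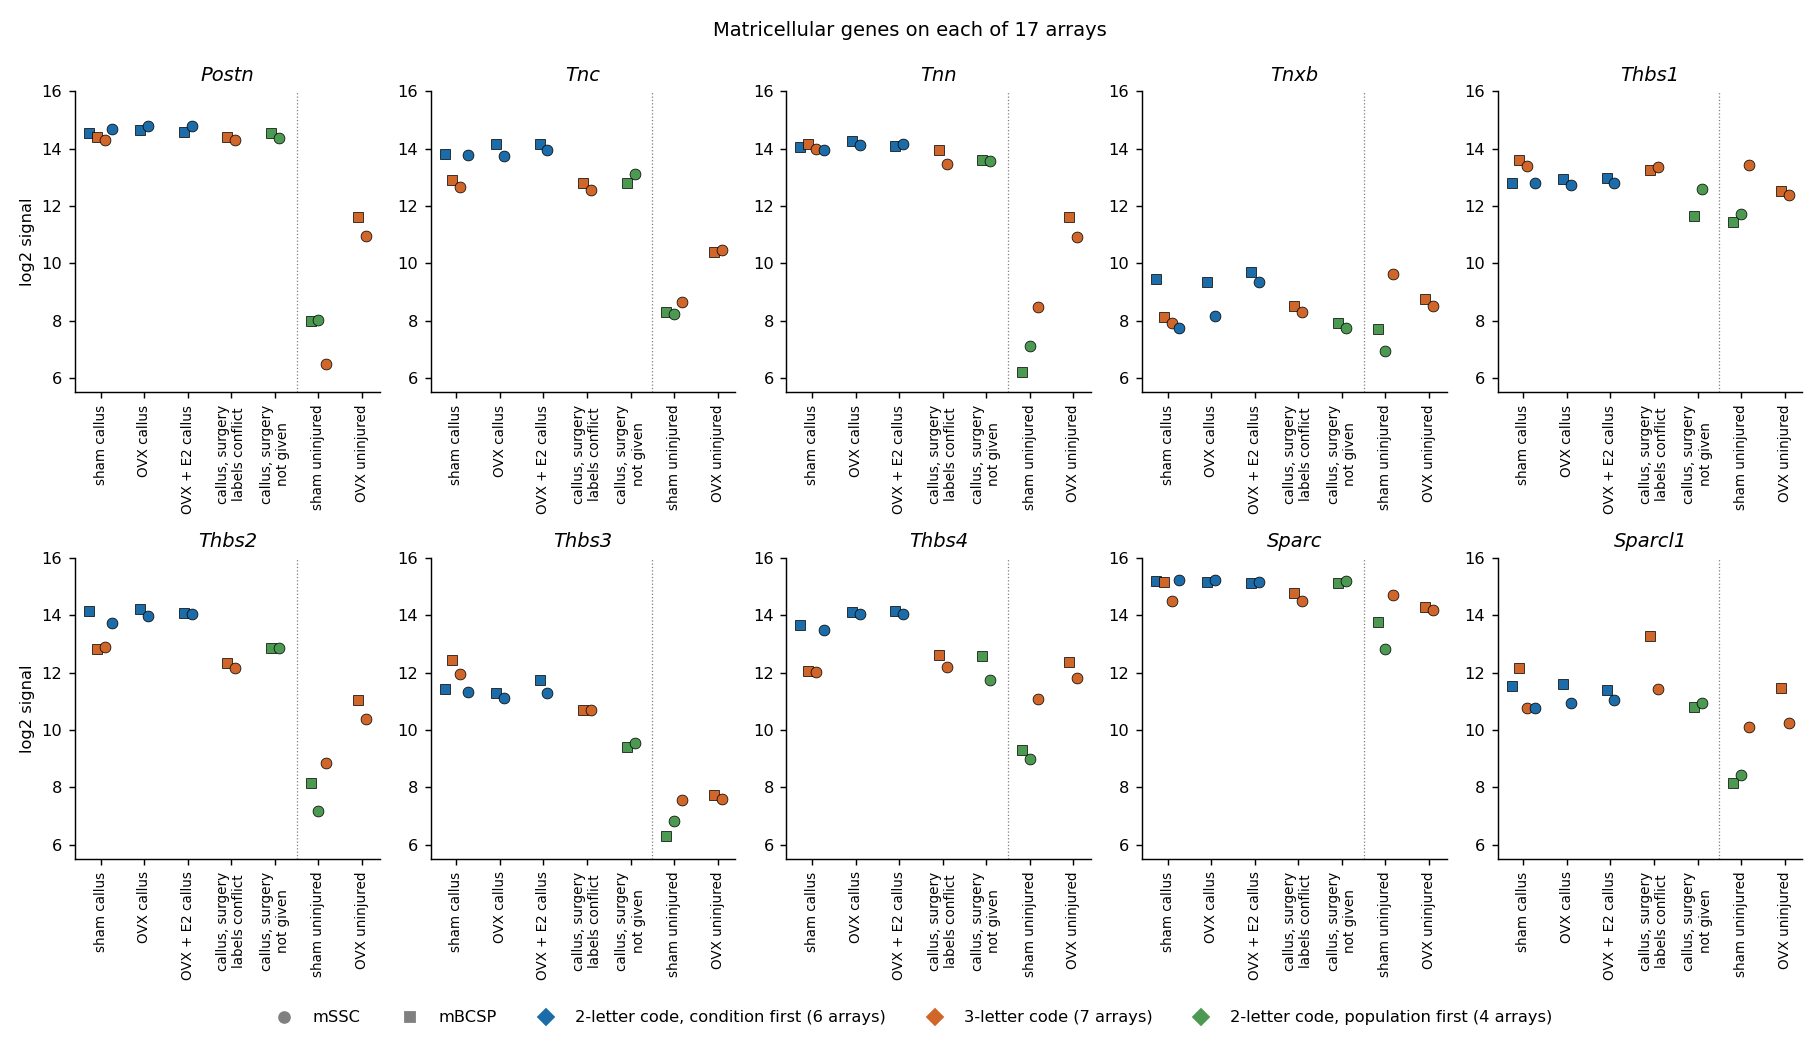
Log2 signal (vertical axis, the same in all panels) of the 10 matricellular genes on each of 17 arrays, by group of surgery and injury. Circles are mSSC arrays, squares are mBCSP arrays, each title form has its colour, and a dotted line separates callus from uninjured arrays. Postn, Tnc, Tnn, Thbs2 and Thbs3 lay higher on every callus array than on any uninjured array, while the other 5 genes overlapped.

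The first question was how these genes differed between cells of fracture callus and of uninjured bone. Of the 10 genes 9 were higher in callus, by log2 differences of 0.59 to 5.36, and Tnxb was the exception (limma, adjusted p under 0.05, 17 arrays). Among all genes tested 38.8% were called in either direction and 20.9% were called higher in callus. The median difference of the 10 genes was 2.58 on the log2 scale, beside 0.02 over all 14504 genes tested. Every callus array exceeded every uninjured array for 5 of the 10 genes, a pattern that 8.45% of all genes showed.

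Postn had log2 signals of 14.29 to 14.81 (median 14.55) on the 12 callus arrays. On uninjured arrays Postn stood at 8 and 8.01 in the sham mBCSPs and mSSCs of form C, 6.48 in the sham mSSCs of form B, and 11.60 and 10.95 in OVX mBCSPs and mSSCs. The callus arrays were tightly grouped, and the uninjured arrays were all lower and spread widely. The log2 difference was 5.36 (SE 0.64, limma, adjusted p = 9.5e-06), a 41.2-fold difference and rank 3 among the increases of all genes tested.

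Tnn showed the next largest difference. It ranged from 13.47 to 14.27 (median 14.02) in callus, and stood at 6.19 and 7.10 in the form C sham mBCSPs and mSSCs, 8.47 in the form B sham mSSCs, and 11.60 and 10.90 in OVX mBCSPs and mSSCs of uninjured bone. As for Postn, the OVX arrays were the highest of the uninjured ones. The log2 difference of Tnn was 4.82 (SE 0.56, limma, adjusted p = 7.05e-06).

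Tnc lay between 12.55 and 14.18 (median 13.43) on callus arrays. Its uninjured values were 8.31 and 8.22 in the form C sham mBCSPs and mSSCs, 8.66 in the form B sham mSSCs, and 10.39 and 10.46 in OVX mBCSPs and mSSCs. The groups did not overlap, and the log2 difference was 3.55 (SE 0.33, limma, adjusted p = 7.72e-07). A dimmer second probe set of Tnc differed by 2.56, with both uninjured sham mSSC arrays at the floor set for dim signal.

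Thbs2 ranged from 12.18 to 14.22 (median 13.32) in callus. On uninjured arrays it was 8.14 and 7.17 in the form C sham mBCSPs and mSSCs, 8.86 in the form B sham mSSCs, and 11.03 and 10.37 in OVX mBCSPs and mSSCs. Thbs2 differed by 3.46 (SE 0.43, limma, adjusted p = 1.38e-05), and by 3.92 and 2 on its other probe sets, the latter with 4 of the 5 uninjured arrays at the floor.

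Thbs3 had callus values of 9.42 to 12.43 (median 11.28). Its 5 uninjured values lay close together, at 6.30 and 6.83 in form C sham mBCSPs and mSSCs, 7.56 in form B sham mSSCs, and 7.74 and 7.60 in OVX mBCSPs and mSSCs. Unlike Postn, Tnn, Tnc and Thbs2, Thbs3 had similar values on the OVX arrays and the sham array of the same form. Its log2 difference was 3.48 (SE 0.30, limma, adjusted p = 4.08e-07).

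The other called genes differed less, and their callus and uninjured arrays overlapped. Sparcl1 ran from 10.75 to 13.28 (median 11.20) in callus and stood at 8.15, 8.42, 10.12, 11.45 and 10.25 in uninjured bone (in the order of arrays used above), a log2 difference of 1.7 (SE 0.34, limma, adjusted p = 0.000981). Thbs4 ran from 11.73 to 14.15 (median 13.06) in callus, beside 9.29, 8.99, 11.07, 12.37 and 11.80, and differed by 1.38 (SE 0.37, limma, adjusted p = 0.00652). The OVX array of mBCSPs exceeded some callus arrays for both genes. Without the 4 callus arrays of unsettled surgery labels, Thbs4 differed by 0.23 (limma, adjusted p = 0.537) and Sparcl1 by 0.71 (0.0536), and neither was called. With title form as a term, that fit rests on form B, where sham callus arrays are set against uninjured arrays mostly of OVX mice. Among the sham arrays alone the log2 differences were 0.89 and 1.01. The uninjured side there is a single array, the form B mSSCs.

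Sparc was bright on all arrays, from 14.50 to 15.25 (median 15.16) in callus and at 13.77, 12.84, 14.71, 14.31 and 14.19 in uninjured bone. It differed by 0.86 (SE 0.24, limma, adjusted p = 0.0105). Its callus values lay close to the top of the scale, which after normalization was 15.77, and the part of this in the size of the difference was not tested. Other probe sets of Sparc, 1 of them much dimmer, gave 1.29 and 1.28. Without the arrays of unsettled surgery labels Sparc differed by 0.40 (limma, adjusted p = 0.148), in the fit that rests on form B. Among the sham arrays alone it stood at -0.14. The uninjured side there is the form B mSSC array, so this turn in direction rests on 1 array.

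Thbs1 ranged from 11.66 to 13.61 (median 12.87) in callus and stood at 11.45, 11.71, 13.42, 12.54 and 12.40 in uninjured bone. Its log2 difference of 0.59 (SE 0.19, limma, adjusted p = 0.0237) was the smallest of those called. Tnxb ran from 7.73 to 9.71 (median 8.24) in callus and stood at 7.70, 6.92, 9.63, 8.75 and 8.51 in uninjured bone, and was not called (-0.37, SE 0.36, limma, adjusted p = 0.464). Both genes were high on the form B sham mSSC array of uninjured bone, where Postn was at its lowest.

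Means of arrays that share a group and title form gave 9 values, 6 of callus and 3 of uninjured bone, for which an exact two-sided permutation test can give no p under 0.0119. Postn, Tnc, Tnn, Thbs2, Thbs3 and Sparcl1 reached that p. For all of these but Sparcl1 it follows from the lack of overlap between callus and uninjured arrays, and so is no separate support. The unadjusted exact permutation p of Sparc was 0.0238 and that of Thbs4 was 0.0357, while Thbs1 (0.381) and Tnxb (1) were not separated. With no term for title form, Thbs1 was not called (0.54, limma, adjusted p = 0.186).

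**Figure D2:**
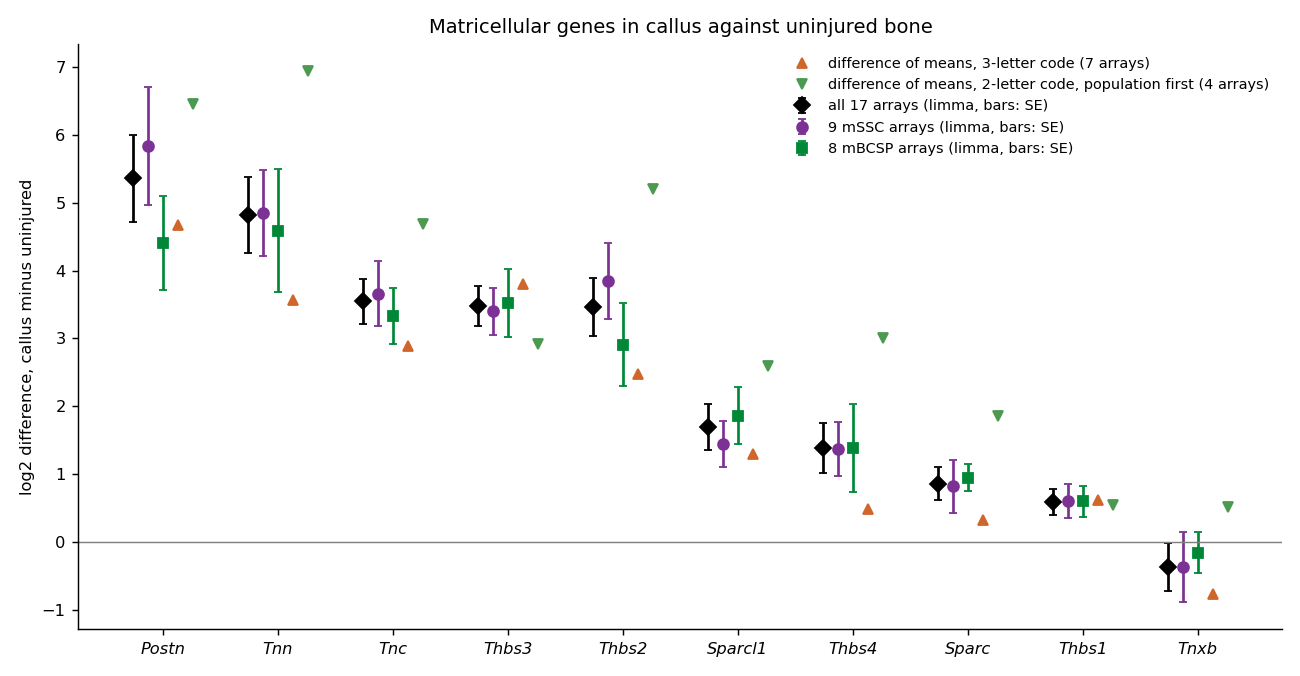
Log2 difference between callus and uninjured bone (vertical axis) for each matricellular gene, ordered by the difference over all arrays. Symbols with bars are limma estimates and their SE over 17 arrays, 9 mSSC arrays and 8 mBCSP arrays, and triangles are differences of means within title form B (4 callus and 3 uninjured arrays) and form C (2 and 2). All estimates of Postn, Tnn, Tnc, Thbs3 and Thbs2 exceeded a log2 difference of 2, while those of Tnxb lay on both sides of 0.

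Within title forms, the mean of Postn differed by 4.68 in form B and by 6.45 in form C. Tnn differed by 3.57 and 6.95, Tnc by 2.89 and 4.69, Thbs2 by 2.47 and 5.21, and Thbs3 by 3.81 and 2.92. Every callus array exceeded every uninjured array for these 5 genes, so their arrays could not overlap within a form either. Thbs4 differed by 0.48 in form B, where its arrays overlapped, and by 3.01 in form C, where they did not. Sparc differed by 0.33 and 1.85 and Sparcl1 by 1.30 and 2.59, with an overlap in form B alone. Tnxb differed by -0.76 in form B and by 0.52 in form C. The form B arrays of uninjured bone include both OVX arrays, and those of form C are sham arrays only.

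Fitted within mSSCs, 7 of the 10 genes were called higher in callus, beside 36.3% of all genes called in either direction. Within mBCSPs 7 were again called, beside 12.6% of all genes. Postn differed by 5.84 (SE 0.87) in mSSCs and by 4.41 (SE 0.69) in mBCSPs, and Tnn by 4.85 and 4.59. Thbs4 was called in mSSCs (1.37, limma, adjusted p = 0.0251) and not in mBCSPs (1.39, limma, adjusted p = 0.205), while Sparc was called in mBCSPs (0.95, limma, adjusted p = 0.0213) and not in mSSCs (0.82, limma, adjusted p = 0.126). The test of the difference between the populations called 0 of the 10 genes and 0% of all genes, with 884 genes and 1 of the 10, Thbs2 (0.69, SE 0.20), at an unadjusted p under 0.05. No gene was therefore shown to respond differently in mSSCs and mBCSPs.

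The stretch around the transcription start is shown for the 5 genes whose callus and uninjured arrays did not overlap. They were picked by that pattern alone, and whether they share regulation was not tested. The windows are from RefSeq, mouse build GRCm38.p6, and run from 250 bases before to 50 bases after the start, 5′ to 3′ on the strand of the gene. Capitals mark matches, on either strand, to the TATA box TATAAA, the CCAAT box CCAAT, the TEAD motif GGAATG or the AP-1 motif TGANTCA.
Postn, first start, chr3:54359017-54359316, plus strand: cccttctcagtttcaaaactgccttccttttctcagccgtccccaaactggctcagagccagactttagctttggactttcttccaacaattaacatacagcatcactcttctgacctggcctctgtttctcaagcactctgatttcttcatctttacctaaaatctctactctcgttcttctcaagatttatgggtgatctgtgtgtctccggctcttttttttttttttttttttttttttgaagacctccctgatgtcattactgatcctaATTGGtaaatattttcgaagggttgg
Postn, second start, chr3:54360857-54361156, plus strand: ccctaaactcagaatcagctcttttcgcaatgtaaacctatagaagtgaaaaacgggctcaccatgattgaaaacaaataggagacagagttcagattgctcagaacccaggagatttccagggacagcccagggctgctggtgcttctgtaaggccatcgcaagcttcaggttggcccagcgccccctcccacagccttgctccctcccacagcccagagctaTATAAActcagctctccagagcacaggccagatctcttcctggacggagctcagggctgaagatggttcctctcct
Tnc, upstream start of the 2 listed, chr4:64046966-64047265, minus strand: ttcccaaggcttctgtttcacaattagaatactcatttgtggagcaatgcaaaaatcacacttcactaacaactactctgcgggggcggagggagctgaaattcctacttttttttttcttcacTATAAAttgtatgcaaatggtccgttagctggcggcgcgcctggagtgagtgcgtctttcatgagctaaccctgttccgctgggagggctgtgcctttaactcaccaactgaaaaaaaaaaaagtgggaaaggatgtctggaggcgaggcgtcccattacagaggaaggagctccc
Tnn, chr1:160153526-160153825, minus strand: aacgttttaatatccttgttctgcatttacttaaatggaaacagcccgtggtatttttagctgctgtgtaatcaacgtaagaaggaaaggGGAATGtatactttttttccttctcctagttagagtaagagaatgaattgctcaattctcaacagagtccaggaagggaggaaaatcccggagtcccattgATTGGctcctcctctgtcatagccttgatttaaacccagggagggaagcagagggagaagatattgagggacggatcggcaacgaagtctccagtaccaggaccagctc
Thbs2, chr17:14694213-14694512, minus strand: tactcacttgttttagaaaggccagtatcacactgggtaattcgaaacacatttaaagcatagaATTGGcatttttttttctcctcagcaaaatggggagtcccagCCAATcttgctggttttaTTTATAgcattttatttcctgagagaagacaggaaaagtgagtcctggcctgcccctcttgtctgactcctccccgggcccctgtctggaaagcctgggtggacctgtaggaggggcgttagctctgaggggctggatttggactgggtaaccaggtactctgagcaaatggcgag
Thbs3, chr3:89214930-89215229, plus strand: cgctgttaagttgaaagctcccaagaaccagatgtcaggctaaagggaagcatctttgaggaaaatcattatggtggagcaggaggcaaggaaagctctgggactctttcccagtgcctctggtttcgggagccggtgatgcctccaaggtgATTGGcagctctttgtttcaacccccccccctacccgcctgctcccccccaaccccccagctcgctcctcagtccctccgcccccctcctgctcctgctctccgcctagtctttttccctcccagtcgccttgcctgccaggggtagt

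The genes themselves span chr3:54359267-54391041 (Postn), chr4:63959785-64047015 (Tnc), chr1:160085029-160153692 (Tnn), chr17:14665500-14694262 (Thbs2) and chr3:89215180-89226841 (Thbs3). The second start of Postn carries TATAAA 26 bases before it, and the upstream start of Tnc carries it 126 bases before. Over the 10 windows listed for 8 of the genes, 4 held TATAAA (2 of these are the overlapping windows of Tnc), compared with 13.6% of 32851 windows of the same length. CCAAT was found in 4 of the 10, beside 37.4% of all windows, GGAATG in 2, beside 14.7%, and TGANTCA in 1, that of Tnxb, beside 7.81%. No single one of the motifs was shared by all 5 genes shown.

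Other genes of the same biology were counted from lists, in the injury comparison that called 38.8% of all genes, and 20.9% of all genes higher in callus. Of 19 further matricellular genes 15 were tested, and 13 of these were called higher in callus and 0 lower, with a median of 1.58. Among them Fstl1, a secreted relative of Sparc, differed by 3.80, Ccn4 by 3.07, Ccn1, an integrin ligand, by 2.36, Fbln1, a fibulin, by 2.30, Smoc1 by 1.67 and Tgfbi, the closest relative of periostin, by 1.14. Vtn (0.35) and Ccn3 (0.34) were not called. Of 15 genes of the matrix that these proteins bind, 14 were higher and 0 lower, with a median of 2.58. Col12a1, a collagen on fibril surfaces, differed by 4.93, Col6a2 by 3.72, Col5a1 by 2.94 and Bmp1, the protease that trims procollagen, by 1.80. Dcn (0.84) did not pass the test.

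Receptors of the matricellular proteins were less uniform, with 9 of 17 higher, 2 lower and a median of 0.82. Lrp1, an endocytic receptor of thrombospondins, differed by 2.67, Cacna2d1, a receptor of thrombospondins on neurons, by 2.39, and Itga5, Itgb5, Itgav and Itgb1, integrin subunits, by 1.61, 1.34, 1.06 and 1.05. The lower receptors were Itga4 (-2.38) and Cd47 (-1.49), which leukocytes also carry. Of 7 genes that induce matricellular genes, 5 were higher and 1, Tgfbr1 (-0.90), was lower. Tgfb2 differed by 3.42, Tgfb3 by 2.43, and the mesenchymal transcription factor Prrx1 by 2.94.

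Genes that mark other cells were counted in the injury comparison too. It called 38.8% of all genes, and 20.9% of all genes higher in callus. The counts of these short lists were not tested against those shares. Chondrocyte markers were called higher in callus for 8 of 8, osteoblast markers for 6 of 6, and tendon markers, which include Thbs4, for 5 of 6. The mean log2 signal of 7 neutrophil markers ran from 9.78 to 14.10 on callus arrays and from 13.78 to 14.84 on uninjured arrays, with 2 of 7 called lower in callus. Macrophage markers were lower for 3 of 7, at means of 7.55 to 10.13 against 9.26 to 11.14, and platelet markers for 1 of 6, at means of 7.25 to 8.94 against 7.53 to 10.90. With the neutrophil mean as a covariate, 8 of the 10 genes and 4059 of all 14504 were called, Postn at 5.42, Tnn at 4.81, Tnc at 3.57, Thbs2 at 3.55 and Thbs3 at 3.12, and Thbs1 (0.48) was not. Whether skeletal and fibrous cells made up a different share of the sorted cells in callus was not tested.

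mSSCs and mBCSPs were then compared with each other within the 8 pairs that share a group and title form. None of the 10 genes was called by limma, nor was any of the genes tested (0%), although 1404 genes had an unadjusted p under 0.05, among them 4 of the 10. By an exact two-sided sign-flip test, which can give no p under 0.00781 with 8 pairs, the same 4 genes had an unadjusted p under 0.05, all lower in mSSCs.

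Sparcl1 differed by -0.73 on the log2 scale (SE 0.23), mSSCs minus mBCSPs. It was lower in mSSCs in 6 of 8 pairs, by -1.84 in the callus pair of conflicting labels, -1.40 and -0.79 in sham callus, -1.21 in OVX uninjured bone, -0.67 in OVX callus and -0.35 in OVX + E2 callus, and higher by 0.27 in form C sham uninjured bone and 0.13 in the callus pair without a surgery label (exact sign-flip p = 0.0391). Endothelial markers were lower in mSSCs for 8 of 8 genes, with a median of -1.99 and 0 called. The mean of these 8 markers differed by -4.98, -3.81 and -2.75 in the 3 pairs where Sparcl1 differed most, and by -0.07 to -1.41 in the other 5. With the endothelial mean as a covariate the difference of Sparcl1 was 0.08 (limma, adjusted p = 0.942). That mean was lower in mSSCs in all 8 pairs, so it overlaps with the difference between populations. Whether endothelial cells account for the values of Sparcl1 was not tested. Tek, the gene of Tie2, for which cells had been sorted out, was at 6.06 to 11.70 in mBCSPs and 5.97 to 7.62 in mSSCs.

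Tnxb was lower in mSSCs in 8 of 8 pairs (exact sign-flip p = 0.00781, mean -0.61). It differed by -1.72 in sham, -1.17 in OVX and -0.38 in OVX + E2 callus of form A and by -0.78 in form C uninjured bone, and the difference was between -0.14 and -0.24 in the other 4 pairs. Thbs4 was also lower in 8 of 8 pairs (exact sign-flip p = 0.00781, mean -0.31), with single differences from -0.84 to -0.01. Thbs2 was lower in 6 of 8 pairs (exact sign-flip p = 0.0469, mean -0.30, from -0.97 to 0.08). With the endothelial mean as a covariate Tnxb stood at -0.96, Thbs4 at -0.29 and Thbs2 at -0.48. Postn, Tnc, Tnn, Thbs1, Thbs3 and Sparc had mean differences between -0.22 and 0.07, none with an exact sign-flip p under 0.195.

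**Figure D3:**
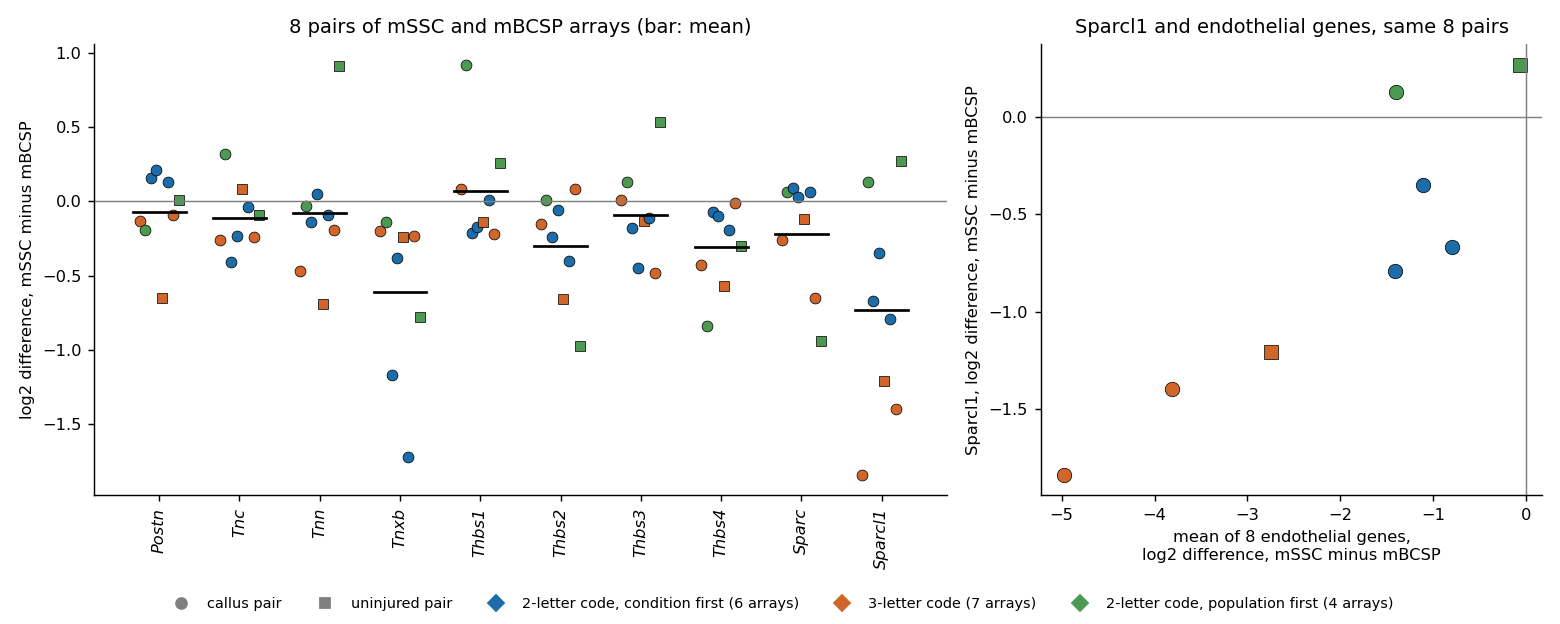
Left, log2 difference between the mSSC and the mBCSP array of each of 8 pairs, with the mean as a bar. Right, the difference of Sparcl1 (vertical axis) against the difference of the mean of 8 endothelial markers (horizontal axis) in the same pairs, where the 3 pairs with the largest endothelial differences are also those with the largest differences of Sparcl1. Circles are callus pairs, squares are pairs of uninjured bone, and colours give the title form.

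The study asked how loss of ovarian hormones affects callus cells. In OVX against sham callus 0 of the 10 genes were called, as were 0% of all genes, with 293 genes and 1 of the 10 at an unadjusted p under 0.05. That gene was Thbs4, at 14.13 (mBCSP) and 14.06 (mSSC) in OVX callus against 13.68 and 13.48 in sham callus of the same form, a log2 difference of 0.51 (SE 0.22, limma, adjusted p = 1). The other 9 genes differed by -0.17 to 0.20, with SE from 0.20 to 0.45. Postn was at 14.65 and 14.81 in OVX mBCSPs and mSSCs and at 14.56 and 14.69 in sham, and Tnc at 14.15 and 13.74 against 13.83 and 13.79. Since each group has a single pair in this form, the SE comes from the variation of population differences among pairs and not from replicates of a condition.

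Sham callus arrays of forms A and B differed by more than OVX and sham arrays of form A did for several genes. Thbs4 stood at 12.05 and 12.04 on the form B sham arrays, 1.63 and 1.44 below those of form A, and Tnc at 12.90 and 12.65. With no term for title form, Thbs4 differed by 1.28 with OVX, Thbs2 by 0.70 and Tnc by 0.65, none of them called (limma, adjusted p = 1). The 2 callus arrays of conflicting labels share form B with the other sham arrays. Thbs3 was at 10.69 and 10.70 on the conflicting arrays and at 12.43 and 11.95 on the sham arrays, differences of -1.75 in mBCSPs and -1.25 in mSSCs, and Thbs2 at 12.33 and 12.18 against 12.82 and 12.89. Sparcl1 went the other way, at 13.28 and 11.44 against 12.15 and 10.75. Counted as OVX, these arrays moved Thbs3 to -0.84 and Thbs2 to -0.22, again not called (limma, adjusted p = 0.427 and 0.721).

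Estradiol was compared with OVX alone on form A. Of the 10 genes 0 were called by limma in OVX + E2 against OVX callus, beside 0.0207% of all genes, and 0 had an unadjusted p under 0.05, among 332 genes that did. Tnxb had the largest difference, with 9.71 (mBCSP) and 9.33 (mSSC) in OVX + E2, 9.34 and 8.17 in OVX and 9.45 and 7.73 in sham callus. In mBCSPs the 3 values lay within 0.37 of each other, and the mSSC value was highest with E2. Tnxb differed by 0.77 (SE 0.40, limma, adjusted p = 1) between OVX + E2 and OVX callus. Thbs3 differed by 0.32, and the other 8 genes by -0.09 to 0.12. Macrophage and neutrophil markers were higher with E2 for 7 of 7 and 7 of 7 genes, with medians of 1.8 and 1.7 and 0 called.

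OVX + E2 against sham callus gave 0 of 10 called by limma, with 0.0207% of all genes, and 359 genes at an unadjusted p under 0.05. Among these were Tnxb (0.94, SE 0.40, limma, adjusted p = 1) and Thbs4 (0.52, SE 0.22, limma, adjusted p = 1), which share their sham arrays with the comparison of OVX and sham. Thbs4 stood at 14.15 and 14.05 with E2, beside 14.13 and 14.06 in OVX callus.

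**Figure D4:**
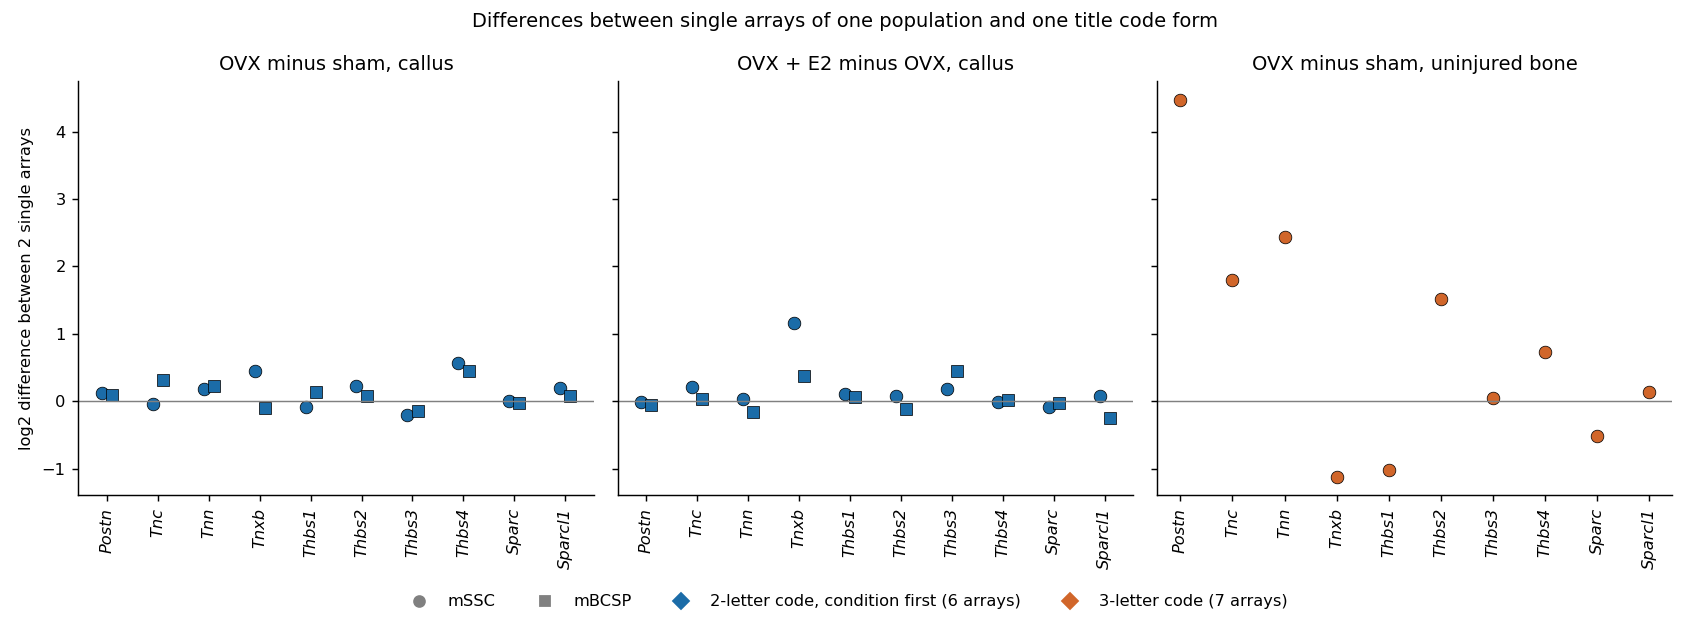
Log2 differences between single arrays of one population and one title form for the 10 genes, on a common vertical axis, for OVX minus sham callus, OVX + E2 minus OVX callus, and OVX minus sham uninjured mSSCs. Circles are mSSCs and squares are mBCSPs, and each point is the difference of 2 arrays with no error of its own. Differences in callus lay within -0.25 and 0.57 except for Tnxb with E2 (1.16 in mSSCs), and in uninjured mSSCs Postn differed by 4.47.

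In uninjured bone OVX arrays were higher for Postn, Tnn and Tnc, 3 of the 10 genes, where 0.145% of all genes were called. Postn differed by 4.76 (SE 0.25, limma, adjusted p = 1.45e-05), rank 2 among the increases of all genes. Tnn differed by 2.74 (SE 0.38, limma, adjusted p = 0.0188) and Tnc by 1.71 (SE 0.25, limma, adjusted p = 0.0245). Thbs2, at 1.69 (SE 0.32, limma, adjusted p = 0.0953), was not called, nor were Thbs4 (0.86), Sparcl1 (0.36), Thbs3 (0.07), Sparc (-0.57), Thbs1 (-0.91) and Tnxb (-1.31). With the title form as a term, this comparison rests on 1 sham array, the form B mSSCs. Its SE and p-values come from the variation of population differences among pairs and not from replicates of sham or OVX mice. In mSSCs of that form the OVX array exceeded the sham array by 4.47 for Postn, 2.44 for Tnn and 1.80 for Tnc. Postn was called in all 30 alternatives run, Tnn in 22 and Tnc in 15. Tnc lost its call with the conflicting arrays left out (limma, adjusted p = 0.0571), without the trend in limma's moderation (0.0847) and on the deposited values without quantile normalization (0.169), where Tnn also lost it (0.0506). Both lost it without any 1 of the 6 form A callus arrays or the OVX mBCSP array of uninjured bone, where Postn alone was called.

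With no term for title form, all 3 sham arrays of uninjured bone entered, and Postn differed by 3.75 (limma, adjusted p = 0.000348), Tnn by 4.01, Tnc by 2.02 and Thbs2 by 2.61, all called. That fit called 485 of all 14504 genes, against 21 with the form term. For Postn, Tnn, Tnc and Thbs2 both OVX arrays lay above all 3 sham arrays. The same held for Thbs4, and narrowly for Sparcl1 (lowest OVX value 10.25, highest sham value 10.12) and Thbs3 (7.60 and 7.56). The share of all genes with this pattern was not computed, so the pattern cannot be read as a trait of these genes. Of the 3 sham arrays 2 were of form C. Set against those 2 alone (an alternative chosen after the data were seen), 7 of the 10 genes were called, with Postn at 3.27, where 1161 of all 14504 genes were called in place of 21, and Sparc turned to 0.95 (limma, adjusted p = 0.0399). In a limma test of the difference, the OVX minus sham value of Postn in uninjured bone exceeded that in callus by 4.66 (SE 0.33). The callus side rests on form A arrays and the uninjured side on form B arrays, with 1 sham array, so injury and title form cannot be told apart there. Of the 10 genes 1 was called in this test of the difference, where 0.0276% of all genes were, and a further 5 had an unadjusted p under 0.05, among them Tnn (2.54, limma, adjusted p = 0.238) and Tnc (1.58, limma, adjusted p = 0.32).

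Markers of skeletal cells differed between these arrays in the same direction. Between OVX and sham uninjured bone chondrocyte markers were higher for 8 of 8 genes (median 1.21, 1 called, Col9a1 at 2.21), osteoblast markers for 6 of 6 (1.09, 0 called) and tendon markers for 6 of 6 (1.04, 0 called). Platelet markers were lower for 6 of 6 (-2.27, 1 called, Treml1 at -3.07). The sham mSSC array of form B had a mean of 10.37 over the chondrocyte markers, where the OVX arrays had 11.45 and 11.35, and a mean of 10.90 over the platelet markers, where they had 8.91 and 8.96. On the same array Sparc (14.71), Thbs1 (13.42) and Tnxb (9.63) were higher than on either OVX array, so the 10 genes did not shift together. Of the matrix genes Lox, the enzyme that cross-links collagen, was higher with OVX by 2.79 (limma, adjusted p = 0.00628) and Col5a2 by 1.67 (limma, adjusted p = 0.00628). Whether a different share of skeletal cells in the sort accounts for the values was not tested, and with 1 sham array the array and the surgery cannot be told apart.

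The form of the title code itself was tested over all arrays, since it bears on each comparison. By an F test in limma 7 of the 10 genes differed between forms (Tnc, Tnxb, Thbs1, Thbs2, Thbs3, Thbs4 and Sparcl1), beside 20.1% of all genes. In callus Thbs2 was at 13.74 to 14.22 on the 6 arrays of form A, 12.18 to 12.89 on the 4 of form B and 12.86 and 12.87 on those of form C. Thbs4 was at 13.48 to 14.15, 12.04 to 12.63, and 12.57 and 11.73, so for both genes form A lay above all other callus arrays. Thbs1 was highest in form B, at 12.72 to 12.98 in form A, 13.27 to 13.61 in form B, and 11.66 and 12.58 in form C. Thbs3 was lowest on the callus arrays of form C, at 9.42 and 9.55. Postn, which showed the largest difference with injury, spanned a narrow range in callus (14.56 to 14.81, 14.29 to 14.42, and 14.54 and 14.36), with form A again above all other callus arrays. It was not called by the F test (adjusted p = 0.631), whose spread takes in the uninjured arrays too, but was called in 1 of 27 alternatives. With callus arrays alone 8 of the 10 genes were called, beside 4371 of all 14504.

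Across the 17 arrays, which share title forms and the contrast of injury, Tnc and Thbs2 were the most alike of the 10 genes (Pearson r = 0.987). Postn and Tnn had r = 0.964, and Postn and Tnc 0.961. On the 12 callus arrays alone Tnc and Thbs2 had r = 0.956 and Tnc and Thbs4 0.912, where Postn and Tnn had 0.573 and Thbs1 and Sparc -0.488. Tnc, Thbs2 and Thbs4 differ between title forms in the same direction, and the part of this in the correlations was not tested. Tnxb had r of 0.136 to 0.594 with the other 9 genes over 17 arrays.

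Among all genes tested, the most like Tnn over 17 arrays was Col12a1, a collagen on fibril surfaces (r = 0.995). Postn was most like C1qtnf3, a secreted protein of cartilage (0.976), and Serpinf1 (0.973), Tnc most like Dclk1 (0.99) and Mmp2, a gelatinase (0.988), and Thbs2 most like Prrx1 (0.99). Thbs4 was most like Pdgfra, a receptor of mesenchymal cells (0.986). Sparc was most like S100a10 (0.957), with Col1a2, a chain of type I collagen, among its 5 nearest genes (0.943). Sparcl1 stood nearest to Col4a1 (0.961) and Col4a2 (0.946), basement membrane collagens, and Thbs1 to Tgfb1 (0.933). Thbs3 was most like Inppl1 (0.983), and no gene exceeded 0.762 with Tnxb (Htra4).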

How the data were processed

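Processed values of 17 arrays were used. They are deposited log2 signals per probe set; the submitters' notes name MAS5 without a version, and the study's methods describe RiboAmp amplification and export to dChip and Gene Expression Commons, so which tool made the values, and its genome build, is not settled. Arrays carry no counts, and their number limits the precision. Of 45101 probe sets 64 controls were left out and 34945 carry 1 symbol. Signals were quantile normalized, raised to a floor (log2 5.951, the 20th percentile) and returned to log2. The 14504 genes that reached the 40th percentile (log2 7.198) on 2 or more arrays entered the tests.

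limma 3.58.1 in R 4.3.3 (lmFit, eBayes with trend) was fitted over all genes, with Benjamini-Hochberg adjustment and a threshold of 0.05. Injury was fitted with population and title form as terms and the pair of arrays as a random block (consensus correlation 0.133). Populations were compared within pairs, and surgery by 7 groups of surgery and injury over all 17 arrays, with population and title form as terms. The interaction of OVX and injury was added after the data were seen. The 10 genes are all named, with up to 6 genes of each list by smallest p and the 5 genes most like each member; others are examples chosen after their values were seen. The members and lists were chosen with earlier results of these data known. List genes without a single-gene probe set, Spp1 among them, were not analysed here. The fits were tested on simulated data with known changes. Alternatives changed the normalization, floor, filter, probe set, moderation, form term, block and arrays.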

Additional observations from a re-analysis of the deposited data

Results flagged for a closer look

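Sparc stood apart on 1 of the 4 sham callus arrays. It was 14.50 on the form B mSSC array and 15.16, 15.19 and 15.25 on the other 3, and the gap to the nearest value was 0.877 of the whole range (Dixon's ratio). Chance gives a gap past the threshold used for this flag in about 1 in 20 groups of like arrays, and 10 genes were looked at. The 4 arrays differ in title form and population, so that rate does not strictly apply to them. Another probe set of Sparc gave 14.76 on that array and 15.04 to 15.08 on the others.

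The OVX minus sham value of Postn was larger in uninjured bone than in callus, by 4.66 on the log2 scale (SE 0.33). Both OVX arrays of uninjured bone were higher than the sham mSSC array of the same title form, at 11.60 and 10.95 against 6.48. In callus Postn was higher in OVX than in sham by 0.12 in mSSCs and 0.09 in mBCSPs. All callus values of Postn lay within 14.29 and 14.81, near the top of the scale at 15.77. The sham side in uninjured bone is a single array of form B, while the callus arrays compared are of form A, so injury and title form cannot be told apart.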

How the results depend on the processing

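Postn, Tnc, Tnn, Thbs2 and Thbs3 were called higher in callus under all 34 alternatives run on the injury comparison, whereas Thbs1 was called in 22, Sparc in 29, Thbs4 and Sparcl1 in 31 each and Tnxb in 0. Among the form B arrays alone 5 of the 10 genes were called. Among the sham arrays alone Sparc turned to -0.14, where the form term leaves a single uninjured array, the form B mSSCs. Without the 4 callus arrays of unsettled surgery labels 6 genes, and 7074 of all genes, were called, and Thbs4, Sparc and Sparcl1 were not. With the form term, that fit too rests on form B, with sham callus arrays against mostly OVX uninjured arrays. Of all genes 3292 were called among the form B arrays alone and 1154 among those of form C alone, against 5626. Within mBCSPs 2 genes were called without the filter on dim signal, and mSSCs and mBCSPs differed for 4 genes by the exact sign-flip test without adjustment. OVX against sham uninjured bone gave 1 gene on the deposited values without quantile normalization, and 7 without the form term and the form B sham array, where Sparc turned to 0.95. All genes called there numbered 7 and 1161, 485 without the form term alone, 244 with form as a random block and 46 without the filter, against 21. Without the form B sham array the fit with a form term gave no value. The cause of these changes was not tested.

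With 1 array left out, 7 to 9 genes were called for injury, 6 to 8 within mSSCs, 4 to 7 within mBCSPs, 1 to 4 for OVX in uninjured bone, 1 to 2 for the interaction of OVX and injury, 5 to 8 for the title forms, and 0 to 0 for the others. Of all genes tested these fits called 4082 to 6422, 3709 to 5454, 973 to 2643, 6 to 76, 2 to 18 and 2219 to 4218 in the same order, and 0 to 248 for the others. The lowest count for injury, 7, came without the callus mSSC array lacking a surgery label, and that within mBCSPs, 4, without the form A sham mBCSP array. For OVX in uninjured bone the count was 1 without any 1 of the 6 form A callus arrays or the OVX mBCSP array, where Postn alone was called, and for the interaction it was 2 without either form C uninjured array. Without the pair block 9 genes were called for injury. Replicate numbers were given in accession order and pair no samples, so the paired fits used group and title form.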
